A study of Mus musculus with 34 samples.

Results

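The immunoglobulin heavy chain (Igh) span of mouse chromosome 12 was followed window by window in the 4C libraries of 2 plasmacytomas. The span was set by coordinate alone, from 113.4 to 117.2 Mb of the mm9 genome build (12:113400001-117200000), which gave 19 of the 12836 windows of 200 kb into which the genome was divided. It holds the constant genes, among them Ighm, Ighg1 and Igha, and the Igh 3′ regulatory region near the bait at 114.4 Mb, with the VH genes towards higher coordinates. All 19 windows passed the filter on low counts.

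Circular chromosome conformation capture (4C) with the enzyme HindIII counts which DNA fragments became joined to a fixed bait fragment in crosslinked nuclei, here a bait in IgH. Counts are high for fragments that lie close to the bait, on the same DNA molecule or in space, and copies made by PCR can raise them further. The tumors were TEPC1165 and PCT4961, plasmacytomas of the mouse strain Balb/c, with 2 libraries each. For PCT4961 the labels give the genotype AID-/- BclXL; for TEPC1165 no genotype is given. AID is the enzyme that starts class switching and somatic hypermutation, and Bcl-xL is a protein that protects cells from apoptosis. Each group is thus 1 tumor, so tumor and genotype cannot be told apart. Whether both libraries of a tumor stem from separate cultures is not in the labels, and p-values then measure only the spread between libraries, which may be technical. The series holds 34 samples in all, and the other 30 were not used here. No RNA was measured in these 4 libraries, so the labelled cell type was not checked against its marker genes. An RNA-seq library of PCT4961 is among the samples not used.

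The Igh locus encodes the heavy chain of antibodies. In developing B cells a V, a D and a J segment are joined, and the DNA between the joined segments is usually cut out, so the distance from the constant genes to the V genes differs between clones and can differ between the alleles of a clone. A plasmacytoma is a tumor of antibody-secreting cells and descends from 1 such clone. Ighm encodes the constant part of IgM, the first class made. Class switching later joins the rearranged V segment to a constant gene further along, such as Ighg1 for IgG1 or Igha for IgA, and deletes the constant genes in between. The 3′ regulatory region, beyond Igha, holds the enhancers that drive the locus in plasma cells.

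Gene positions in mm9 were not used here, so no gene was assigned to a single window and only the gene order is given, from the RefSeq annotation of GRCm38.p6. In order of increasing coordinates Crip2, Crip1, Tedc1 and Tmem121 come first, then Igha, Ighe, Ighg2c, Ighg2b, Ighg1, Ighg3, Ighd and Ighm. They are followed by 4 J segments, 20 D segments (pseudogenes included) with Adam6b among them, Adam6a, and 183 Ighv entries, of which 120 are V segments and 63 pseudogenes. Zfp386 and Vipr2 lie beyond the last of them. The Ighv entries fall into 16 families. All 21 members of Ighv5 and 14 of the 92 members of Ighv1 are among the 91 entries nearest to the D segments, and the other 78 members of Ighv1 lie further away. Balb/c mice carry other alleles of this locus than the C57BL/6J genome on which mm9 is based, and how many reads were lost or misplaced for that reason was not tested.

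The libraries held 1668589 and 2178689 reads in PCT4961 against 1890718 and 1776498 in TEPC1165. Reads fell on 1.12% to 1.36% of the HindIII fragments of the genome. Libraries of the same tumor were alike across the Igh span as a whole, but not throughout its VH part or over the genome. Across the 19 windows of the span the Pearson correlation of log2(RPM + 1), where RPM is the number of reads per 1000000 reads of the library, was 0.95 between the TEPC1165 libraries and 0.97 between the PCT4961 libraries, and 0.85 between the libraries of different tumors that carry the same replicate number. Across all 3460 tested windows it was −0.22, 0.11, and 0.50 and 0.51, so that over the tested windows a library was more like the same-numbered library of the other tumor than its own replicate. Windows of a library share its depth and are not independent replicates.

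Reads inside the Igh span took 3.98 times the share in PCT4961 that they took in TEPC1165, and they were placed differently along it. In summed share of reads the tumors were close on the side of lower coordinates, though PCT4961 was lower in the lowest window. They were far apart at the bait, in the window next to it, and in a block of 3 windows in the middle of the VH part. The 19 windows held 39.84% and 40.38% of all reads in the PCT4961 libraries, and 8.35% and 11.83% in the TEPC1165 libraries. The means were 40.11% ± 0.38 and 10.09% ± 2.46 (n = 2 each, SD), a ratio of 3.98, and the tumors did not overlap. The difference was not limited to the span: chromosome 12 as a whole held 73.33% ± 0.76 in PCT4961 and 21.55% ± 1.83 in TEPC1165, a ratio of 3.40. Between the libraries with number 1 the ratio was 4.77 for the span and 3.59 for the chromosome. Between those with number 2 it was 3.41 and 3.23. With 95% Wilson intervals of 39.76% to 39.91% and 8.31% to 8.389% for the replicates numbered 1, counting error was far smaller than the spread between libraries; these intervals cover counting error only, since copies of a molecule are not independent. With 2 libraries against 2, the smallest p an exact permutation test allows is 0.333, so shares are given without a test.

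**Figure D1:**
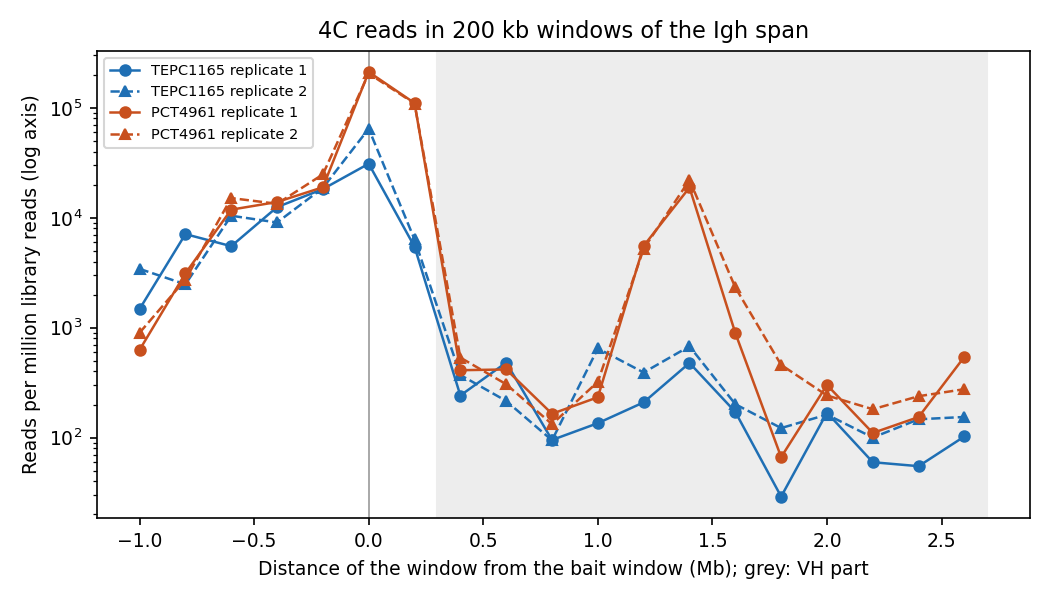
RPM (log axis) in each of the 19 windows of the Igh span, against the distance of the window from the bait window in Mb, for the 4 libraries (color marks the tumor, marker shape the replicate number; grey marks the VH part). The tumors lie close to each other from −0.6 to −0.2 Mb, and PCT4961 lies lower at −1 Mb. They separate at the bait window, at 0.2 Mb and from 1.2 to 1.6 Mb, where PCT4961 reaches 18848 and 22041 RPM.

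Of the 19 windows 4 differed between the tumors in edgeR's quasi-likelihood test, and all 4 were higher in PCT4961. They were the bait window, the window next to it, and 2 adjoining windows of the VH part. Over all tested windows of the genome 14 of 3460 were called (0.405%), and 9 were higher in PCT4961 (0.26%). An unadjusted p under 0.05 in this test was reached by 58 of the 3460. By level alone, both PCT4961 libraries lay above both TEPC1165 libraries in RPM in 14 of the 19 windows, against 14.9% of all tested windows. They lay below in 1 window, against 10.3% of all tested windows, and overlapped in 4. These percentages cover the whole genome, while chromosome 12 as a whole held 3.40 times the share of reads in PCT4961. A count by level over chromosome 12 alone was not made. An edgeR fit of chromosome 12 only called 14 of its 366 tested windows, and 13 were higher in PCT4961. The same 4 windows of the span were among them. The median log2 fold change of PCT4961 over TEPC1165 was 1.54 in the span and −0.95 over all tested windows. The latter was −1.69 with DESeq2 size factors and 0.87 without TEPC1165 replicate 1, so fold changes are also given relative to it. With the total reads of each library as library sizes in edgeR it was −1.62. The log2 changes of the 4 called windows were then 2.13, 4.22, 4.16 and 5.14, in order of position. The 4 calls were lost without PCT4961 replicate 2 (0 of 19; 8 of 2401 windows of the genome at an unadjusted p under 0.05) and with DESeq2 as the test (0 of 19; 167 of 3460), with fold changes of the same sign. Without TEPC1165 replicate 2 the log2 changes of the other 3 called windows, in order of position, were 6.16, 6.50 and 7.26, and in a fit of chromosome 12 only 3.42, 3.36 and 4.33.

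**Figure D2:**
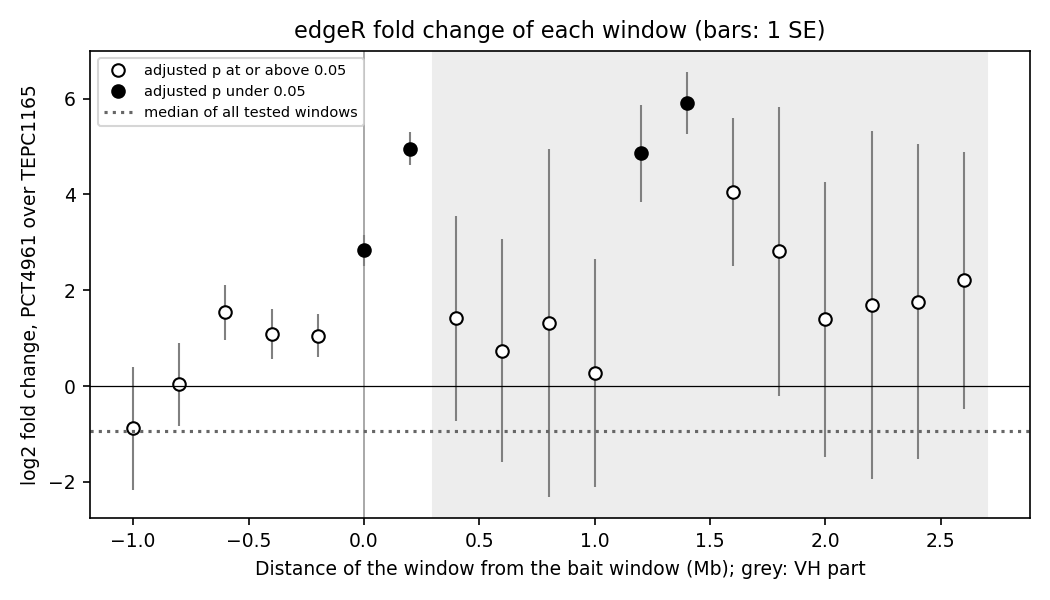
Log2 fold change of PCT4961 over TEPC1165 from edgeR for each window, with 1 SE, against the distance from the bait window in Mb; filled points have an adjusted p under 0.05 and the dotted line is the median of all tested windows, −0.95. The 4 filled points lie between 2.83 and 5.91, and the SE is 1.54 or more in all other windows of the VH part.

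On the side of lower coordinates, the 5 windows from 113.4 to 114.4 Mb held a share of reads that was only slightly larger in PCT4961, without overlap. The TEPC1165 libraries had 4.482% and 4.407% of their reads there, and the PCT4961 libraries 4.845% and 5.693% (ratio of means 1.19). None of the 5 windows passed the test. The window adjoining the bait window, 12:114200001-114400000, had 34482 and 33184 reads in TEPC1165 against 31606 and 54024 in PCT4961 (edgeR log2 change of 1.05 with SE 0.46, adjusted p = 0.796). Its RPM ratio was 1.04 for replicates 1 and 1.33 for replicates 2. RPM uses total reads, whereas edgeR used library sizes from outside the bait region. With total reads in edgeR the log2 change of this window was 0.24. In all 4 libraries it held the most reads of the 5 windows. The windows that begin at 114.0 and 113.8 Mb held 23619 and 16088, and 10426 and 18534 reads in TEPC1165, and 23211 and 29189, and 19771 and 32890 in PCT4961. When either TEPC1165 library was left out, which leaves 1 library of that tumor, the log2 fold changes of these 3 windows ran from 1.40 to 3.14.

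The window that begins at 113.6 Mb differed more between the TEPC1165 libraries than between the tumors, with 13423 and 4403 reads in TEPC1165 against 5209 and 5969 in PCT4961. The lowest window of the span, 12:113400001-113600000, was the 1 window in which both PCT4961 libraries lay below both TEPC1165 libraries in RPM. It held 2795 and 6090 reads in TEPC1165 against 1048 and 1959 in PCT4961 (edgeR log2 change of −0.88 with SE 1.28, adjusted p = 0.796).

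At the bait the tumors separated. The bait window, 12:114400001-114600000, was the highest of chromosome 12 in all 4 libraries and held 353411 and 447079 reads in PCT4961 against 58599 and 114668 in TEPC1165. Both PCT4961 libraries lay above both TEPC1165 libraries, which themselves were apart, at 30993 and 64547 RPM. In edgeR this was a log2 change of 2.83 (SE 0.33, adjusted p = 3.13e-05), or 3.78 above the median of all tested windows. The call was also lost with a filter of 50 reads (adjusted p = 0.170), and the change was 4.58 without TEPC1165 replicate 2 and 1.32 in a fit of chromosome 12 only. How many of these reads come from the bait fragment itself or its direct neighbours, such as uncut or self-ligated DNA, was not tested. As a share of the span's reads the bait window did not separate the tumors, with 37.12% and 54.58% in TEPC1165 against 53.16% and 50.82% in PCT4961.

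The window next to the bait on the side of the VH genes differed most in share of reads after the bait window. The window 12:114600001-114800000 held 184285 and 238290 reads in PCT4961 against 10313 and 11283 in TEPC1165. This was 10.99% ± 0.076 of all reads in PCT4961 against 0.590% ± 0.063 in TEPC1165 (n = 2 each, SD), a ratio of 18.6. In edgeR this was a log2 change of 4.95 (SE 0.35, adjusted p = 3.14e-08), or 5.90 above the median of all tested windows. Its fragments were detected alike in the tumors, 54 and 56 of 65 in TEPC1165 against 55 and 56 in PCT4961, so that the difference lay in the reads per detected fragment: 191 and 201.5 in TEPC1165 against 3351 and 4255 in PCT4961.

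The side on which the bait had more reads was opposite in the tumors. The window above the bait window had 5.83 and 4.41 times the reads of the window below it in the PCT4961 libraries, and 0.299 and 0.340 times in the TEPC1165 libraries. From the bait window to the window above it, reads fell 1.92-fold and 1.88-fold in PCT4961 and 5.68-fold and 10.2-fold in TEPC1165. The tumors did not overlap in either ratio, and neither ratio depends on the scaling of a library.

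**Figure D3:**
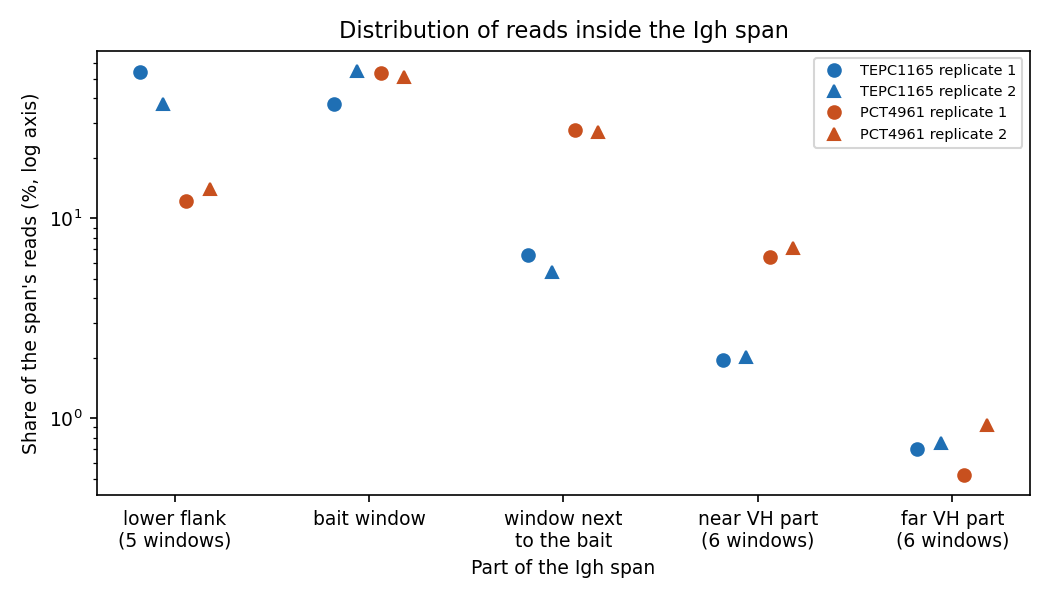
Share of the span's reads (percent, log axis) in each part of the Igh span, 1 point per library (color marks the tumor, marker shape the replicate number). The window next to the bait holds 27.72% and 27.09% in PCT4961 against 6.533% and 5.371% in TEPC1165, while the shares of the tumors overlap in the bait window and in the far VH part.

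The boundary at 114.8 Mb, where the VH part as set here begins, was a steep drop in all 4 libraries. From the window below 114.8 Mb to the window above it reads fell 269-fold and 204.5-fold in PCT4961 and 22.6-fold and 17.1-fold in TEPC1165. On the side of lower coordinates, reads fell 11.2-fold and 8.28-fold in PCT4961 and 1.70-fold and 3.46-fold in TEPC1165 from the bait window to the window below it, and at most 5.51-fold between neighbours further down the span. Fragments stayed readily detected past the drop, with 31 and 35 of 51 in TEPC1165 against 32 and 36 in PCT4961 in the first window beyond it.

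The VH part, 12 windows from 114.8 to 117.2 Mb, held 2.769% and 3.228% of all reads in PCT4961 (95% Wilson intervals 2.744% to 2.794% and 3.204% to 3.251%). In TEPC1165 it held 0.2228% and 0.3286% (0.2162% to 0.2296% and 0.3203% to 0.3371%). The ratio of the means was 10.9, and the tumors did not overlap. Within the span's own reads the VH part took 7.47% ± 0.74 in PCT4961 against 2.72% ± 0.078 in TEPC1165 (SD, n = 2 each). That rise lay in the 3 windows from 115.6 to 116.2 Mb, picked after their values were seen as the highest VH windows of PCT4961. The other 9 VH windows took a smaller share of the span's reads in PCT4961 (0.635% ± 0.045) than in TEPC1165 (1.67% ± 0.045), as did the first 4 of them (0.314% ± 0.0094 and 1.13% ± 0.013). The far VH part, from 116.0 Mb on, took 0.721% ± 0.28 and 0.726% ± 0.034, with overlap. Of the 12 VH windows 2 passed the test, both higher in PCT4961, against 0.26% of all tested windows. In the fit of chromosome 12 only the same 2 passed, where 13 of 366 windows were called higher in PCT4961. By level 9 of the 12 VH windows lay above in PCT4961, against 14.9% of all tested windows, and 3 overlapped.

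The first 4 windows of the VH part, from 114.8 to 115.6 Mb, held nearly the same share of reads in the tumors: 0.09541% and 0.133% in TEPC1165 against 0.1226% and 0.1296% in PCT4961. The window 12:114800001-115000000 had 457 and 660 reads in TEPC1165 against 685 and 1165 in PCT4961 (edgeR log2 change of 1.41 with SE 2.15, adjusted p = 0.798). Next to it, 12:115000001-115200000 had 911 and 383 reads in TEPC1165 against 696 and 667 in PCT4961, and the tumors overlapped. The TEPC1165 libraries thus differed more from each other there than from PCT4961. A low point followed at 12:115200001-115400000, with 180 and 168 reads in TEPC1165 against 275 and 289 in PCT4961, the fewest of the near VH part in both PCT4961 libraries and in both TEPC1165 libraries. The window 12:115400001-115600000 had 256 and 1151 reads in TEPC1165 against 389 and 702 in PCT4961, again with overlap. None of these 4 windows passed the test. The SE of their log2 fold changes ran from 2.15 to 3.63, so a fold change of several-fold was not detectable in them.

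At 115.6 Mb reads of PCT4961 rose abruptly. From the window below that boundary to the window above it they rose 23.8-fold and 16.2-fold in PCT4961, against 1.55-fold and 0.604-fold in TEPC1165, where the second library fell. The window 12:115600001-115800000 held 9254 and 11378 reads in PCT4961 against 396 and 695 in TEPC1165 (edgeR log2 change of 4.86 with SE 1.01, adjusted p = 0.0381). It lay 5.81 above the median of all tested windows on the log2 scale. The call was also lost without PCT4961 replicate 1 (adjusted p = 0.927) and with a filter of 50 reads (adjusted p = 0.0842).

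The peak of the VH part was the next window, 12:115800001-116000000, with 31450 and 48020 reads in PCT4961 against 904 and 1204 in TEPC1165. The RPM of PCT4961 was 39.4-fold and 32.5-fold that of the TEPC1165 library of the same number. In edgeR this was a log2 change of 5.91 (SE 0.64, adjusted p = 1.49e-05), or 6.86 above the median of all tested windows. This 1 window held 68.06% and 68.28% of all VH reads in the PCT4961 libraries, and 21.46% and 20.63% in the TEPC1165 libraries. It was among the highest VH windows of TEPC1165 too: replicate 1 had slightly more reads at 115.0 Mb (911), and replicate 2 had none higher. Reads per detected fragment were 714.8 and 1044 in PCT4961 against 22.05 and 30.1 in TEPC1165.

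Beyond 116.0 Mb reads of PCT4961 fell again, 21.1-fold and 9.49-fold from 1 window to the next, against 2.79-fold and 3.36-fold in TEPC1165. The window 12:116000001-116200000 held 1493 and 5060 reads in PCT4961 against 324 and 358 in TEPC1165. Both PCT4961 libraries were higher, but they were apart from each other, at 894.8 and 2322.5 RPM, and the window did not pass the test (edgeR log2 change of 4.05 with SE 1.54, adjusted p = 0.796). The 3 windows from 115.6 to 116.2 Mb, grouped after their values were seen, held 42197 and 64458 reads in PCT4961 against 1624 and 2257 in TEPC1165. The remaining 9 VH windows held 4009 and 5865 in PCT4961 against 2589 and 3580 in TEPC1165, or 0.255% ± 0.020 and 0.169% ± 0.046 of all reads (SD, n = 2 each). The ratio between the tumors was 1.51 outside the 3 windows and 25.8 inside them. The 3 were picked as the VH windows with the highest mean RPM in PCT4961, which by itself favors a higher ratio inside. Of the 9 windows 6 lay above in PCT4961 by level, against 14.9% of all tested windows, and 3 overlapped. The test called 0 of them, against 0.405% of all tested windows.

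The far end of the VH part, from 116.2 to 117.2 Mb, was low in both tumors. The window 12:116200001-116400000 had 55 and 217 reads in TEPC1165 against 111 and 1000 in PCT4961, so the replicates numbered 2 of both tumors were above those numbered 1. Detection there followed the number as well, with 12 and 14 of 51 fragments in the libraries numbered 1 of TEPC1165 and PCT4961, and 22 and 23 in those numbered 2. The window 12:116400001-116600000 had 319 and 288 reads in TEPC1165 against 503 and 527 in PCT4961. Then came 12:116600001-116800000 with 113 and 178 in TEPC1165 against 184 and 395 in PCT4961, and 12:116800001-117000000 with 104 and 261 in TEPC1165 against 257 and 519 in PCT4961. In these 3 windows both PCT4961 libraries were above both TEPC1165 libraries in RPM, by 1.49-fold to 2.80-fold between same-numbered libraries. The last window of the span, 12:117000001-117200000, had 194 and 274 reads in TEPC1165 against 909 and 601 in PCT4961. None of the 5 windows passed the test, with log2 fold changes of 1.395 to 2.815 and SEs of 2.68 to 3.63.

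Detected fragments gave a much smaller difference than reads, and a like profile in all 4 libraries. Their differences between replicates 1 and 2 correlated between the tumors at 0.86 over the 19 windows and 0.79 over all tested windows. Detection thus followed the library number as well, and whether same-numbered libraries are independent was not tested. In the VH part 309 and 324 of 675 HindIII fragments had a read in TEPC1165 (45.8% and 48.0%), and 342 and 355 in PCT4961 (50.7% and 52.6%). The 95% Wilson intervals were 42.05% to 49.55% and 44.25% to 51.77% in TEPC1165 and 46.9% to 54.42% and 48.82% to 56.33% in PCT4961, so they overlapped. Over the span 53.5% and 54.66% of 1030 fragments were detected in TEPC1165 against 58.35% and 59.13% in PCT4961. Neither share overlapped between the tumors, with differences of 4.74 and 4.66 percentage points. A difference of like size was seen outside the span, in the 19 windows below it (5.14 percentage points) and the 19 windows above it (4.82).

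Detection was high where the reads of PCT4961 peaked, in TEPC1165 as well. At 12:115800001-116000000 41 and 40 of 59 fragments were detected in TEPC1165 against 44 and 46 in PCT4961, the highest percentage of the VH part in all libraries but TEPC1165 replicate 2, where the window at 114.8 Mb had 68.63% against 67.8%. In the low window 12:115200001-115400000 24 and 17 of 56 were detected in TEPC1165 against 21 and 17 in PCT4961. The number of fragments with a read thus rose and fell along the VH part in both tumors, while reads per detected fragment over the VH part were 135.1 and 198.1 in PCT4961 against 13.63 and 18.02 in TEPC1165. With detected fragments in place of reads, edgeR called 0 of the 19 windows. In that fit 7 of the 3460 tested windows had an unadjusted p under 0.05, against 58 in the main fit on reads. In the bait window and the window next to it 83.1% to 89.5% of fragments were detected, which left little room for a difference.

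**Figure D4:**
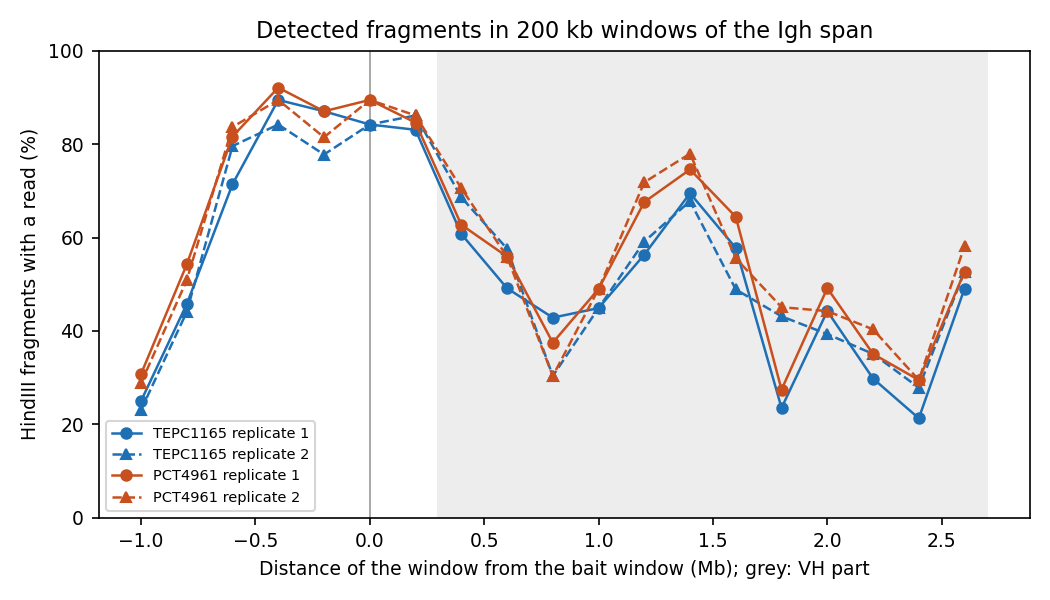
Percent of the HindIII fragments of each window with at least 1 read, against the distance from the bait window in Mb, for the 4 libraries (color marks the tumor, marker shape the replicate number; grey marks the VH part). The 4 lines follow each other, with 67.8% to 78.0% detected at 1.4 Mb and 30.4% to 42.9% at 0.8 Mb.

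Because same-numbered libraries of the tumors were alike over the genome, the TEPC1165 reads of each window were set against the PCT4961 reads of the same number. The percentage was lowest in 3 of the 4 called windows: 5.60% and 4.73% in the window next to the bait, 4.28% and 6.11% at 115.6 Mb, and 2.87% and 2.51% at 115.8 Mb. In the bait window it was 16.6% and 25.6%, and at 116.0 Mb 21.7% and 7.08%. The other 9 windows of the VH part ran from 21.3% to 164%. Whether libraries of the same number share reads was not tested.

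**Figure D5:**
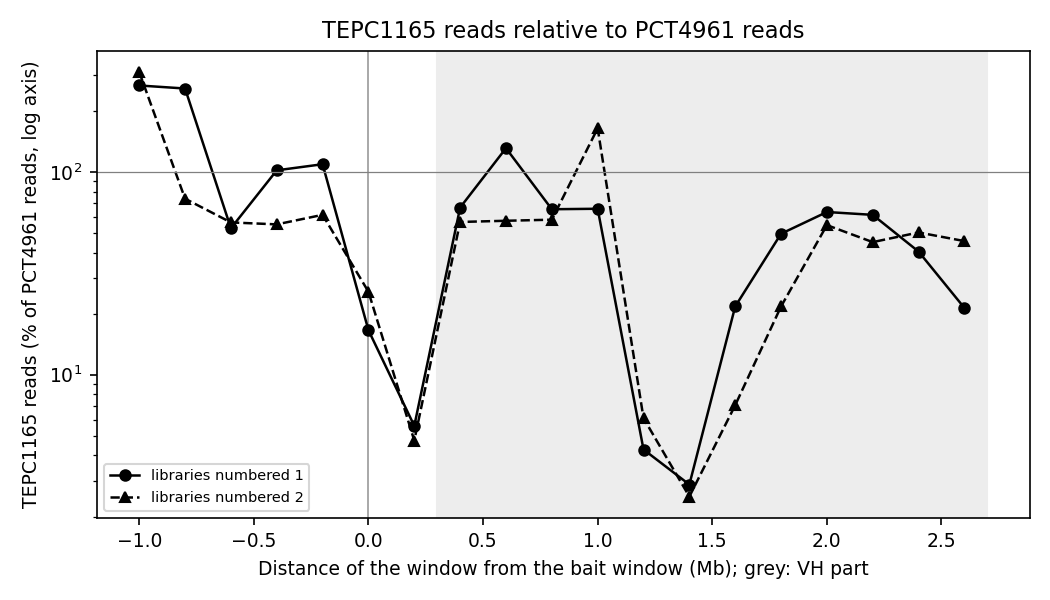
TEPC1165 reads as a percent of the PCT4961 reads of the library with the same number (log axis), against the distance of the window from the bait window in Mb; the horizontal line marks 100%. The lowest values, 2.87% and 2.51%, lie at 1.4 Mb, and the window next to the bait has 5.60% and 4.73%.

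Against its surroundings the VH part stood lower in TEPC1165 than in PCT4961 on the side of the constant genes. Its RPM per window was 2.07% and 3.11% of that of the 5 windows below the bait in TEPC1165, and 23.8% and 23.6% in PCT4961. Against the 19 windows directly below the span it was 16.6% and 25.1% in TEPC1165 against 153.7% and 207.1% in PCT4961. The tumors did not overlap in these ratios. By the median instead of the mean window the log2 difference between the tumors fell from 3.23 to 0.356 against the lower windows of the span, and turned from 3.13 to −0.287 against the 19 windows below. The median RPM of the VH windows was 152.1 and 181.8 in TEPC1165 and 356 and 314.2 in PCT4961, and that of the 19 windows below 752.6 and 492, and 1612 and 1383.

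Beyond the span, too, PCT4961 was above TEPC1165. The 19 windows above the span held 1.69% and 1.507% of all reads in PCT4961 against 0.171% and 0.06896% in TEPC1165, a ratio of means of 13.3 against 10.9 in the VH part. Relative to these windows the VH part was 206.3% and 754.4% in TEPC1165 against 259.4% and 339.1% in PCT4961, and the tumors overlapped. A higher share in PCT4961 was thus seen on both sides of the upper border of the span. The ratio was 13.4 in the near VH part (114.8 to 116.0 Mb) and 3.93 in the far VH part (116.0 to 117.2 Mb).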

How the data were processed

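The authors deposited, per the file headers, a read count for each 200 kb window of mm9, with the number of HindIII fragments of the window and of those with a read. These counts were deposited without normalization. For the aligner, the exact bait position and the handling of PCR copies or of reads with several matches, nothing is given in the sources used here. The bait window was taken from the coordinates of the span's definition. From the counts, RPM, shares of reads and detected fragments were computed (Python 3.11.15, pandas 2.3.3, scipy 1.17.1).

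A window was tested if 2 or more of the 4 libraries had 10 or more reads there (3460 windows) with edgeR 4.0.16 (R 4.3.3): the two-sided quasi-likelihood test with tumor as the only term, a prior count of 2, and Benjamini-Hochberg adjustment over all tested windows at a threshold of 0.05. Library sizes and TMM factors came from windows more than 1 Mb from the bait window. Reads there were 1735257 and 1569886 in TEPC1165, and 1048003 and 1366466 in PCT4961. The effective library sizes after TMM were 1873150 and 1585559, and 1458300 and 900723, so the order of the PCT4961 libraries was turned. The SE is the fold change divided by the square root of F. Log2 fold changes give PCT4961 over TEPC1165. The script was tested on counts simulated as independent between libraries, with the check on false calls at a spread below that of the data. That test does not cover the likeness of same-numbered libraries and does not bear on the calls made here. DESeq2 1.42.0, other scalings, filters and prior counts, a replicate block and leaving out each library were alternatives.

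The span, its parts and the gene list were chosen with earlier results of these data known. Every window of the span is described. The named genes are Ighm, Ighg1 and Igha, and of 24 listed genes of the locus and its surroundings 23 were found in the RefSeq table, which gave order and names only. The 3 windows most like the VH part are those with the smallest distance of log2(RPM + 1), with a pseudocount of 1.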

Additional observations from a re-analysis of the deposited data

How the results depend on the processing

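The count of 4 called windows was 4 with every other scaling and prior count tried, 5 with no filter, 2 with a filter of 50 reads (the bait window and that at 115.6 Mb were lost), 2 of 8 tested with windows outside the bait region only, 0 with DESeq2 as the test and 0 on detected fragments. Leaving out 1 library gave 0 to 7 (the lone library left in a tumor was assumed to vary like the others). It was 0 without PCT4961 replicate 2, 3 without PCT4961 replicate 1, and 7 without either TEPC1165 library. With a replicate block it was 3, as the window at 115.6 Mb lost its call (log2 change 4.87, adjusted p = 0.0761). The labels do not pair the libraries. Deviations of same-numbered libraries in reads correlated at 0.63 over 3460 windows and 0.53 over the 19, and in detected fragments at 0.79 and 0.86. This is a hint from the data only. Over all tested windows, 14 of 3460 were called in the main fit, 25 of 8307 with no filter and 10 of 1602 with the filter of 50 reads. The calls were 18 of 3449 outside the bait region only, 10 of 3460 with the replicate block, and 0 with DESeq2 or on detected fragments. Their number also rose without either TEPC1165 library and fell without either PCT4961 library, so these changes were not limited to the span.

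The 4 called windows had 66 repeats, of which 50 kept the call, 15 lost it and 1 turned: the window at 114.6 Mb was −0.046 on detected fragments. On reads their log2 fold changes ran from 1.32 to 4.58 (bait window), 3.42 to 6.16 (114.6 Mb), 3.36 to 6.50 (115.6 Mb) and 4.33 to 7.26 (115.8 Mb). Repeats with another prior count cannot lose a call, which flatters these numbers. The 15 windows not called had 246 repeats, of which 211 kept sign and side, 7 passed the threshold and 28 turned. The window at 113.6 Mb turned to −0.71 with total reads, −0.17 with total reads outside the bait region, −0.75 with DESeq2 size factors and −0.75 with DESeq2 as the test, −0.56 with no filter, −0.23 with the filter of 50 reads and −1.47 on chromosome 12 only. That at 115.4 Mb turned to −0.49 with total reads, −0.58 with DESeq2 size factors and −0.58 with DESeq2 as the test, −0.0071 with the filter of 50 reads and −1.34 on chromosome 12 only. With the fit on chromosome 12 only, the windows at 113.8, 114.0, 114.2, 114.8, 115.0, 115.2 and 116.4 Mb became −0.069, −0.44, −0.57, −0.20, −0.70, −0.13 and −0.060. On detected fragments those at 113.4, 114.2, 114.8 and 115.2 Mb became 0.22, −0.028, −0.017 and −0.15. With a library left out, the windows at 113.4, 113.6, 115.4 and 116.2 Mb ran from −1.71 to 0.91, −0.38 to 1.42, −0.66 to 2.88 and −0.076 to 5.04. The cause of these turns was not tested.

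The share of reads in the span differed by 30.02 percentage points, 8.21 with chromosome 12 as the base and 18.75 without the bait window. The VH share of the span's reads differed by 4.75, and by 10.37 without the bait window, 30.44 without it and the window next to it, and 26.2 with the VH part begun 1 window lower. Counted as windows with a detected fragment, the VH parts differed by 0, since all 12 had one. With the median window, the log2 difference of the VH part against the lower windows of the span, the 19 below and the 19 above was 0.356, −0.287 and −3.86, against 3.23, 3.13 and −0.41 with the mean. The last was −1.35 to 0.52 with a library left out, and turned without TEPC1165 replicate 2. Precision was lowest in the 10 VH windows that were not called, whose SE was 1.54 or more.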

Other observations

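The 4 windows directly above the span held more reads than most VH windows in PCT4961 and few in TEPC1165. Whether Ighv genes reach into them was not determined, as gene positions in mm9 were not used. The window 12:117200001-117400000 had 3209 and 5156 reads in PCT4961 against 257 and 274 in TEPC1165, and 12:117400001-117600000 had 2763 and 3355, and 114 and 106. The highest of the 4 was 12:117600001-117800000, with 4816 and 6197 reads in PCT4961 against 102 and 145 in TEPC1165 (edgeR log2 change of 6.10 with SE 1.40, adjusted p = 0.0762). It was followed by 12:117800001-118000000 with 2924 and 3932 reads in PCT4961 against 147 and 74 in TEPC1165. None of the 4 passed the test. Fragments detected in the highest were 37 and 29 of 66 in PCT4961 against 20 and 19 in TEPC1165.

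Outside the span, 3 tested windows had the levels most like the mean profile of the VH windows, by Euclidean distance over the 4 libraries. Those on chromosome 12 were 12:80600001-80800000 (distance 1.26), with 132 and 225 reads in TEPC1165 against 670 and 1286 in PCT4961, and 12:100200001-100400000 (distance 1.37), with 280 and 989, and 909 and 1416. The third was 15:96400001-96600000 (distance 1.37), with 550 and 215, and 815 and 1326. All 3 had fewer fragments detected than most VH windows, 8 to 15 of 68 or 69.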
